A study of Mus musculus with 20 samples.

Results

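Serotonin receptors are the proteins through which serotonin acts on nerve cells, and 10 of their genes were examined here in the brains of *Winnie* and C57BL/6 mice: *Htr1a*, *Htr1b*, *Htr1d*, *Htr1f*, *Htr2a*, *Htr2c*, *Htr3a*, *Htr4*, *Htr5a* and *Htr7*. They were taken by gene symbol, as a set chosen with earlier results of these data known. All 10 were found among the 17211 genes of the expression table. *Htr5b* and *Htr6* were in the table too but were not part of this set. *Winnie* mice carry a mutation of *Muc2*, the gene of the main secreted mucin of the colon, in every cell, and develop colitis spontaneously. C57BL/6 mice without the mutation, from the same colony, were the controls. Mice of both genotypes were aged 14 weeks, with no treatment named, and the labels name 10 brains of each genotype, 5 of them labelled female and 5 labelled male. The labels give the tissue as brain. RNA from a mixture of cells was sequenced, so a lower level could mean fewer cells of a type or less RNA per cell, which cannot be told apart. *Muc2* was not analysed here.

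The authors' values are CPM, the reads of a gene divided by those of the brain's whole library and scaled to a fixed total. The reads behind them could be recovered, and they amounted to 16540303 to 23923769 per brain. A single read was worth 0.0418 to 0.0605 CPM, and the receptor genes held between 34 and 1790 reads in a brain, so counting error was small for most of them and largest for *Htr1d* and *Htr1f*. All 5 neuronal markers were abundant, at 332 to 2187 CPM on average, as were those of astrocytes, oligodendrocytes and microglia, at 37.0 CPM or more. The 8 markers listed for the cerebellum differed widely in level. *Gabra6* of granule cells had a median of 0.465 CPM (0 to 7.44) and *Pcp2* of Purkinje cells one of 0.529 CPM (0 to 5.02). *Fat2* and *Cbln3* were low too, at medians of 0.734 and 1.47 CPM. *Calb1* (100 CPM), *Cbln1* (33.2), *Neurod1* (15.8) and *Car8* (10.3) were not, so a mean over all 8, used below as an index, mixes near-absent and well expressed genes. Markers of the raphe were high in 8 of 20 samples, and whether the samples held every brain region alike was not tested. *Xist*, transcribed in females, and *Ddx3y*, on the Y chromosome, went with the labelled sex in all 10 *Winnie* brains and against it in 9 of 10 C57BL/6 brains. Results could not be recomputed without these 9, since a single C57BL/6 brain would remain, and *Ddx3y* was used as a covariate instead. The sample labels of the C57BL/6 brains may be exchanged or otherwise wrong, which was not tested, so a C57BL/6 replicate number here means the library labelled so. Over all 20 brains *Xist* was high in 11 and *Ddx3y* in 9, where the labels give equal numbers, and the cause was not tested. The libraries are numbered 1 to 10 for C57BL/6 and 11 to 20 for *Winnie* mice, so library order and genotype cannot be told apart.

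Serotonin is made by a small group of neurons in the raphe nuclei of the brainstem, whose fibres reach nearly all of the brain. Its receptors fall into classes by the way they signal. The *Htr1* and *Htr5a* receptors couple to inhibitory G proteins that lower cyclic AMP, the *Htr2* receptors act through Gq and phospholipase C, and *Htr4* and *Htr7* receptors act through Gs and raise cyclic AMP. *Htr3a* stands apart, as a subunit of an ion channel opened directly by serotonin.

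The receptor genes differed widely in level among themselves. Per kilobase of exon, which allows levels of different genes to be set side by side, *Htr2c* was the most abundant in C57BL/6 brains, at 7.83 ± 1.20 CPM per kilobase (SD, n = 10). *Htr1a* followed at 6.23 ± 0.521 CPM per kilobase, and *Htr2c* exceeded it in 9 of 10 C57BL/6 and 10 of 10 *Winnie* brains. *Htr5a* (4.15 ± 0.173 CPM per kilobase), *Htr7* (4.13 ± 0.477) and *Htr1b* (3.99 ± 1.03) formed a middle group whose neighbours did not differ beyond their spread. *Htr5a* was above *Htr7* in only 5 of 10 C57BL/6 and 6 of 10 *Winnie* brains, and *Htr7* above *Htr1b* in 6 and 8. *Htr3a* came next at 3.01 ± 0.369 CPM per kilobase, with *Htr1b* above it in 7 of 10 C57BL/6 and 8 of 10 *Winnie* brains. *Htr2a* stood at 2.46 ± 0.316 CPM per kilobase in C57BL/6 brains, below *Htr3a* in 9 of 10 of them and in 7 of 10 *Winnie* brains. It was above *Htr4*, at 1.22 ± 0.194 CPM per kilobase, in all 20 brains. *Htr4* in turn was above *Htr1f* (1.02 ± 0.234 CPM per kilobase) in 7 of 10 C57BL/6 and 10 of 10 *Winnie* brains, while *Htr1f* and *Htr1d* (0.939 ± 0.345) could not be ordered, with *Htr1f* the higher in 6 of 10 brains of either genotype. The order of the means was the same in *Winnie* brains. The lengths are those of all annotated exons, and a gene that uses only some of them in the brain would stand higher per length of its actual transcript.

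**Figure D1:**
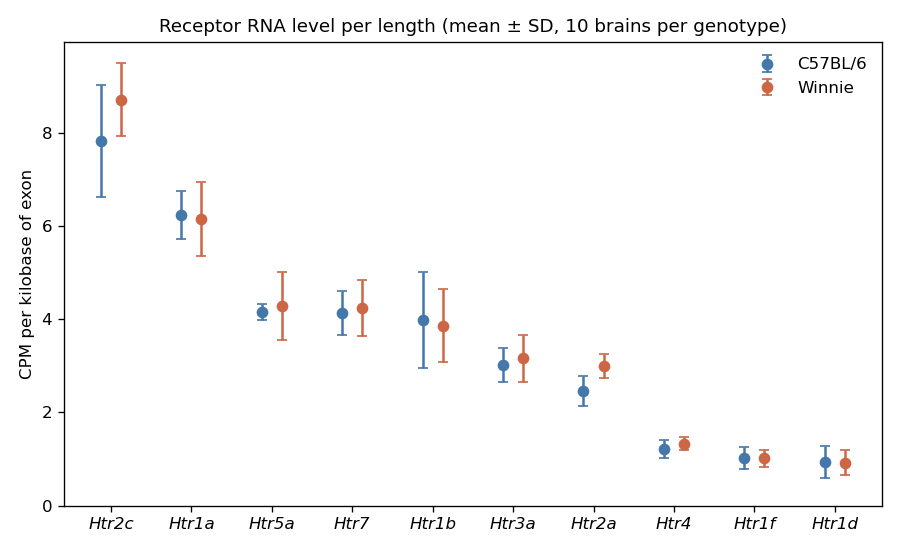
Level of each receptor gene per length, in CPM per kilobase of annotated exon (vertical axis), ordered by the C57BL/6 mean. Points are means and whiskers the SD of 10 brains per genotype, with *Htr2c* at 7.83 and *Htr1d* at 0.939 CPM per kilobase in C57BL/6 brains.

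The main question of the design is whether any receptor gene differed between the genotypes. *Htr2a* was higher in *Winnie* brains and was the 1 gene of 10 called at a false discovery rate (FDR, the Benjamini-Hochberg adjusted p over all 17211 genes) under 0.05 in limma, where 2.52% of all genes were called, 1.52% of all genes as higher and 1.01% as lower in *Winnie* brains. The count over all genes, 434, depended on single brains, being 238, 169, 250, 270 and 694 without C57BL/6 replicates 3, 5, 8, 9 and 10, and 264, 241, 256 and 216 without *Winnie* replicates 2, 3, 7 and 8, while *Htr2a* was called in each case. At an unadjusted p under 0.05, again 1 of 10 receptor genes passed, against 17.6% of all genes. The other 9 did not pass, and their 95% intervals reached from -0.35 to 0.33 on the log2 scale. In all, 6 receptor genes had a mean log2 value above that of C57BL/6 and 4 below, with a median log2 fold change of 0.03, beside 0.0022 for all genes. No receptor gene met the stricter rule of the study's methods, an FDR under 0.001 together with a change of at least 1.5-fold, which 0% of all genes met in limma. On the recovered reads that threshold was met by 1 gene of the whole table in edgeR and by 12 in DESeq2, with 0 receptor genes among them in either.

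**Figure D2:**
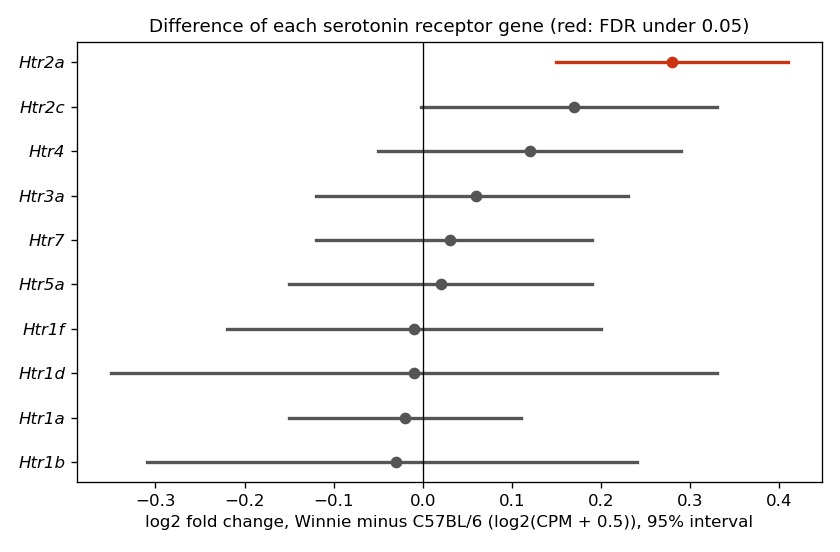
Log2 fold change of each receptor gene, *Winnie* minus C57BL/6, on the log2(CPM + 0.5) scale (horizontal axis), with its 95% interval from limma over 20 brains. The interval of *Htr2a*, in red, runs from 0.15 to 0.41, and those of the other 9 genes, in grey, include 0.

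*Htr2a* encodes the Gq-coupled receptor that is abundant on pyramidal neurons of the cortex and is the target of the classical psychedelics. The gene lies on the plus strand at chr14:74640840-74709494 (GRCm38, GENCODE M21) in 3 exon blocks, and overlaps no other annotated gene. In C57BL/6 brains it ranged from 11 to 17.3 CPM with a median of 13.7, and in *Winnie* brains from 14.1 to 19.3 CPM with a median of 16.7. All 10 *Winnie* brains lay above the C57BL/6 median, 3 lay above the highest C57BL/6 brain, and 5 C57BL/6 brains lay below the lowest *Winnie* brain, so the groups were shifted but overlapped. The means were 13.8 ± 1.77 and 16.8 ± 1.40 CPM (SD, n = 10 each), and the log2 fold change was 0.28 (SE 0.0651), a 1.21-fold difference with a 95% interval of 1.11 to 1.33. The limma FDR was 0.02, and a two-sided permutation test of the same difference gave p = 0.00104. With edgeR the FDR was 0.0269 and with DESeq2 0.00479. *Ddx3y* as a covariate left the log2 fold change at 0.28 with an FDR of 0.0212 in limma. Of the 8 markers of cortical projection neurons, 0 were higher and 1 was lower in *Winnie* brains at an unadjusted p under 0.05. Over all genes the shares were 9.53% and 8.08%. The mean log2 level of the 8 markers was 5.38 to 5.83 in C57BL/6 and 5.40 to 5.57 in *Winnie* brains. With that level as a covariate, an alternative added after seeing the data, the log2 fold change of *Htr2a* was 0.28 with an FDR of 0.0384 in limma. Over all 32 alternatives, 20 of which left out 1 brain each, the FDR lay between 0.00479 and 0.0428.

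The sequence before the start site of *Htr2a* is shown because it is the gene that was called. It is the RefSeq promoter window of GRCm38.p6 up to the first base of the GENCODE gene, chr14:74640624-74640839, plus strand, 5′ to 3′, with matches to the searched motifs in capitals.
Htr2a: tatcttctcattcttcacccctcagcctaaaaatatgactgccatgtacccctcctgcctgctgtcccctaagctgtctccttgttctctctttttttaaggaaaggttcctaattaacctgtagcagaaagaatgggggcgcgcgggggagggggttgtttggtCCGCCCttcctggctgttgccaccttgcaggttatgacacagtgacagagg
The motifs searched on both strands were the TATA box (TATAAA), the CCAAT box (CCAAT), the GC box (GGGCGG), the cyclic AMP response element (TGACGTCA), the E-box (CACGTG) and the Egr motif (GCGNGGGCG), of which the GC box and the Egr motif can share bases. The window held 1 GC box, on the reverse strand and starting 85 bases before the RefSeq start site, and none of the other motifs. A GC box is found in 27.9% of all 32851 RefSeq promoters over the same stretch.

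*Htr2c*, the other Gq-coupled receptor of the set, is strongly expressed in the choroid plexus, hypothalamus and striatum and is known for its part in appetite, and its transcript is edited at several bases. It lies on the plus strand at chrX:146962513-147197277 in 8 exon blocks, with 8 annotated genes inside its introns that share none of its exon bases. It ranged from 48.7 to 86.4 CPM in C57BL/6 brains, with a median of 76.8, and from 71.3 to 90.2 CPM in *Winnie* brains, with a median of 82.8. The lowest value belonged to C57BL/6 replicate 3, the next lowest of that genotype being 61.9 CPM. The log2 fold change of 0.17 (95% interval -0.0018 to 0.33) did not pass, with an FDR of 0.290 in limma and a permutation p of 0.0641. Without C57BL/6 replicate 3 it was 0.10, and with the cortical markers as a covariate it was 0.08. In the 32 alternatives the FDR stayed between 0.0794 and 0.511, and the lowest came with an index of raphe markers as a covariate, also added later, where the log2 fold change was 0.19.

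**Figure D3:**
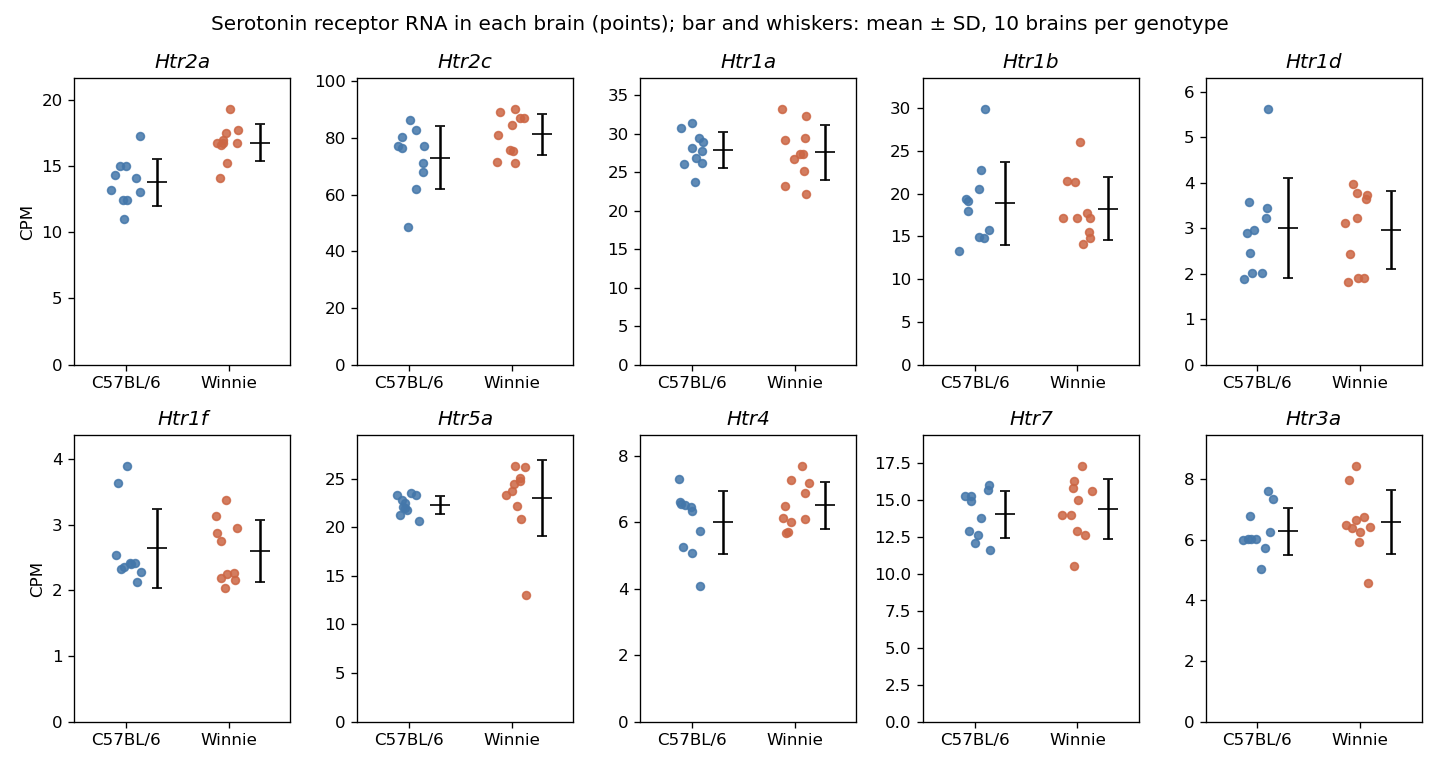
CPM of the 10 receptor genes (vertical axes, each from 0) in every brain (points), with the mean and SD of the 10 brains per genotype beside them. *Htr2a* was at 11 to 17.3 CPM in C57BL/6 and 14.1 to 19.3 CPM in *Winnie* brains, and single brains stood apart in *Htr1d* (5.62 CPM) and *Htr5a* (13 CPM).

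Among the receptors coupled to inhibitory G proteins, *Htr1a* is the autoreceptor on the cell bodies of raphe neurons and a postsynaptic receptor in hippocampus and cortex. It is a gene of 1 exon block at chr13:105443639-105448122, plus strand. Its level was 23.7 to 31.4 CPM in C57BL/6 brains, with a median of 28.0, and 22.1 to 33.2 CPM in *Winnie* brains, with a median of 27.3. The *Winnie* range enclosed the C57BL/6 range, and the log2 fold change was -0.02 (95% interval -0.15 to 0.11, FDR 0.896 in limma). As a fold change, the 95% interval ran from 0.899 to 1.08.

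*Htr1b* and *Htr1d* are the terminal autoreceptors and heteroreceptors that curb transmitter release, and their proteins are the targets of the triptans used in migraine. *Htr1b* lies at chr9:81628291-81633828 on the minus strand. It shares 852 exon bases with *D430036J16Rik* on the opposite strand, and since the strand setting of the counting is not given in the sources used here, reads of both genes cannot be told apart there. *D430036J16Rik* averaged 2.49 CPM in C57BL/6 brains. *Htr1b* ranged from 13.3 to 29.9 CPM in C57BL/6 brains, with a median of 18.5, and from 14.1 to 26.1 CPM in *Winnie* brains, with a median of 17.1. Its log2 fold change was -0.03 (95% interval -0.31 to 0.24, FDR 0.933 in limma). *Htr1d*, at chr4:136423524-136444398 on the plus strand, ranged from 1.88 to 5.62 CPM with a median of 2.93 in C57BL/6 brains and from 1.82 to 3.98 CPM with a median of 3.16 in *Winnie* brains. Its log2 fold change was -0.01 (95% interval -0.35 to 0.33, FDR 0.986 in limma). C57BL/6 replicate 5 was the highest brain of its genotype in both genes.

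The pair had the widest spread between brains of the whole set. The coefficient of variation over all 20 brains was 32.3% for *Htr1d* and 22.7% for *Htr1b*, followed by 20.2% for *Htr1f*, and between 10.6% and 14.3% for the other 7 genes. In C57BL/6 brains *Htr5a* varied least, by 4.17%.

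*Htr1f*, a further receptor coupled to inhibitory G proteins, is the target of lasmiditan, a drug for migraine. It lies at chr16:64924729-65105854 on the minus strand and was low, at 38 to 69 reads per brain. It ranged from 2.13 to 3.89 CPM in C57BL/6 brains, with a median of 2.41, and from 2.04 to 3.37 CPM in *Winnie* brains, with a median of 2.50. The groups overlapped throughout, with a log2 fold change of -0.01 (95% interval -0.22 to 0.20, FDR 0.965 in limma). Replicates 7 and 10 of C57BL/6, at 3.89 and 3.63 CPM, were above every other brain.

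*Htr5a*, at chr5:27842149-27855088 on the plus strand, encodes a receptor of the inhibitory kind found almost wholly in the brain. It was even in C57BL/6 brains, at 20.6 to 23.5 CPM with a median of 22.3. In *Winnie* brains it ranged from 13 to 26.3 CPM with a median of 24.1, and 6 of the 10 exceeded the highest C57BL/6 brain. *Winnie* replicate 3, at 13 CPM, lay far below the other 9, which held 20.8 to 26.3 CPM. The log2 fold change over all brains was 0.02 (95% interval -0.15 to 0.19, FDR 0.937 in limma). Without *Winnie* replicate 3 it was 0.11 (SE 0.0472), with an unadjusted p of 0.0332 and an FDR of 0.257 in limma. The size of the difference thus rests on this brain, while the gene did not pass the FDR threshold either way.

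The Gs-coupled receptors did not pass the test. *Htr4*, the receptor whose agonists speed the movement of the gut, lies at chr18:62324204-62496577 on the plus strand. It ranged from 4.08 to 7.30 CPM with a median of 6.41 in C57BL/6 brains and from 5.67 to 7.70 CPM with a median of 6.31 in *Winnie* brains. The 3 lowest C57BL/6 brains were below every *Winnie* brain although the medians were close, and the log2 fold change was 0.12 (95% interval -0.05 to 0.29, FDR 0.479 in limma). It was 0.07 without C57BL/6 replicate 6 and 0.06 with the cortical markers as a covariate. *Htr7*, at chr19:35958734-36057507 on the minus strand, is found in thalamus, hypothalamus and hippocampus and takes part in setting the circadian clock. It ranged from 11.6 to 16 CPM with a median of 14.4 in C57BL/6 brains and from 10.5 to 17.3 CPM with a median of 14.5 in *Winnie* brains. Its log2 fold change was 0.03 (95% interval -0.12 to 0.19, FDR 0.872 in limma), and ranged from 0.0033 without *Winnie* replicate 3 to 0.08 without *Winnie* replicate 5.

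The channel subunit *Htr3a*, carried in the cortex by a class of inhibitory interneurons, lies at chr9:48899213-48911099 on the minus strand. It ranged from 5.02 to 7.62 CPM with a median of 6.02 in C57BL/6 brains and from 4.56 to 8.43 CPM with a median of 6.45 in *Winnie* brains. Although 8 of 10 *Winnie* brains were above the C57BL/6 median, the log2 fold change of 0.06 (95% interval -0.12 to 0.23, FDR 0.782 in limma) did not pass. It was 0.02 without *Winnie* replicate 7 or without C57BL/6 replicate 10, and 0.11 without *Winnie* replicate 4.

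The genes around the receptors were read from 4 lists with 68 genes in the table, of which 8 passed an unadjusted p under 0.05 and 1 an FDR under 0.05. Over all genes 17.6% and 2.52% passed, so the lists held no more calls than genes at large. Of the 13 genes of serotonin supply, which make, pack, take up or break down serotonin, 0 were higher and 2 lower in *Winnie* brains at an unadjusted p under 0.05 (background 9.53% higher and 8.08% lower), with a median log2 fold change of -0.09. Both act in the supply of tetrahydrobiopterin, the cofactor of tryptophan hydroxylase. *Spr* averaged 19.8 ± 1.81 CPM in C57BL/6 and 17.3 ± 2.11 CPM in *Winnie* brains (SD, n = 10 each), and its FDR was 0.0975 in limma. *Qdpr* averaged 133 ± 12.7 and 118 ± 13.2 CPM, with an FDR of 0.123 in limma.

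Of the 26 genes for G proteins and effectors of the receptors, 1 was higher and 2 lower at an unadjusted p under 0.05. Over all genes the shares were 9.53% and 8.08%. The median log2 fold change of the 26 genes was -0.02. *Adcy9*, an adenylyl cyclase that makes cyclic AMP, was the 1 pathway gene past an FDR under 0.05. It ranged from 41.3 to 55.1 CPM, with a median of 47.4, in C57BL/6 brains and from 49.4 to 65.3 CPM, with a median of 55.9, in *Winnie* brains. The groups overlapped, and its log2 fold change was 0.25 (SE 0.0529, FDR 0.0112 in limma), close in size to that of *Htr2a*. The lower pair at an unadjusted p under 0.05 was *Kcnj9*, a subunit of the potassium channels opened by inhibitory G proteins, and *Prkaca*, a catalytic subunit of protein kinase A, with log2 fold changes of -0.10 and -0.07 and an FDR of 0.274 each in limma. *Gnas*, which encodes the Gs protein and was the most abundant gene of the list, had a log2 fold change of -0.06 (FDR 0.304 in limma).

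Among the 14 receptor partners and RNA editing enzymes, *Adarb2* was higher at an unadjusted p under 0.05, and *S100a10* and *Rgs4* were lower. The median log2 fold change was -0.03, and none of the 14 passed an FDR under 0.05. *Adarb2*, an editing enzyme without known activity that is also a marker of interneurons, had a log2 fold change of 0.19 (FDR 0.110 in limma). *S100a10*, known as p11 and a binding partner of *Htr1b* and *Htr4* receptors, had one of -0.14 (FDR 0.192), and *Rgs4*, which shortens signalling by Gi and Gq proteins, one of -0.22 (FDR 0.211). The 15 other monoamine receptors, for dopamine, noradrenaline and histamine, had 0 genes at an unadjusted p under 0.05 in limma in either direction. Their median log2 fold change was 0.04. At that threshold 9.53% of all genes were higher and 8.08% lower in *Winnie* brains.

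The markers of the serotonin neurons themselves were high in only some of the samples. *Slc6a4*, the serotonin transporter, was at 3.69 to 12.4 CPM in 8 brains, 5 C57BL/6 and 3 *Winnie*, and at 0.885 CPM or less in the other 12. *Tph2*, the brain's tryptophan hydroxylase, followed the same division, at 3.98 to 13.3 CPM in these 8 brains and 0.523 to 1.66 CPM in the other 12. With such a division within both genotypes, the log2 fold changes of -0.56 for *Slc6a4* (95% interval -2.29 to 1.18) and -0.65 for *Tph2* (95% interval -2.02 to 0.71) were not resolved, with FDRs of 0.783 and 0.660 in limma.

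Because brain RNA mixes regions, each receptor was set against indices of region markers, an index being the mean log2(CPM + 0.5) of 5 to 9 marker genes. The most abundant marker was *Ttr* for the choroid plexus, *Ddc* for the raphe, *Ppp1r1b* for the striatum, *Calb1* for the cerebellum, *Zbtb20* for the hippocampus, *Tbr1* for cortical projection neurons, *Rora* for the thalamus, *Pmch* for the hypothalamus and *Cck* for interneurons. Genotype means were removed, p-values came from permutation within genotype, and they were adjusted over 70 relations, of 10 receptors with 7 indices. The hippocampal and raphe indices got no pooled correlation, as their brains fell into separate clusters. Separate meant a gap between neighbouring brains above 25% of the range, a rule set after values were seen. As a share of the range, the widest gap was 0.339 for the hippocampal, 0.262 for the raphe and 0.245 for the striatal index. The striatal index thus kept its pooled correlations by a narrow margin. Within the raphe clusters, of 12 lower and 8 higher brains, no receptor relation passed after adjustment over 20 relations. The smallest p was that of *Htr1a* among the lower 12, with r of 0.752 (permutation p = 0.00808, 0.162 after adjustment). *Htr2c* had r of 0.602 among the lower 12 and 0.807 among the higher 8 (adjusted permutation p = 0.469 and 0.545). Of the 70 relations, 6 passed an adjusted p under 0.05, and 5 of the 6 were of *Htr1b* or *Htr1d*. For none of the 9 indices, the hippocampal and raphe ones included, did a difference between genotypes pass the threshold (permutation test). The smallest p, for the interneuron index, was 0.0250, which is 0.225 after adjustment. Of its 7 markers 3 were higher and 1 lower in *Winnie* brains at an unadjusted p under 0.05, against 9.53% and 8.08% of all genes. Among those higher, *Adarb2* was also in the list of receptor partners and *Prox1* in the hippocampal list. *Reln*, for a protein secreted by interneurons, had a log2 fold change of 0.24 (FDR 0.0281 in limma), and *Cck*, a neuropeptide and the most abundant of the 7, one of -0.13 (FDR 0.199 in limma).

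**Figure D4:**
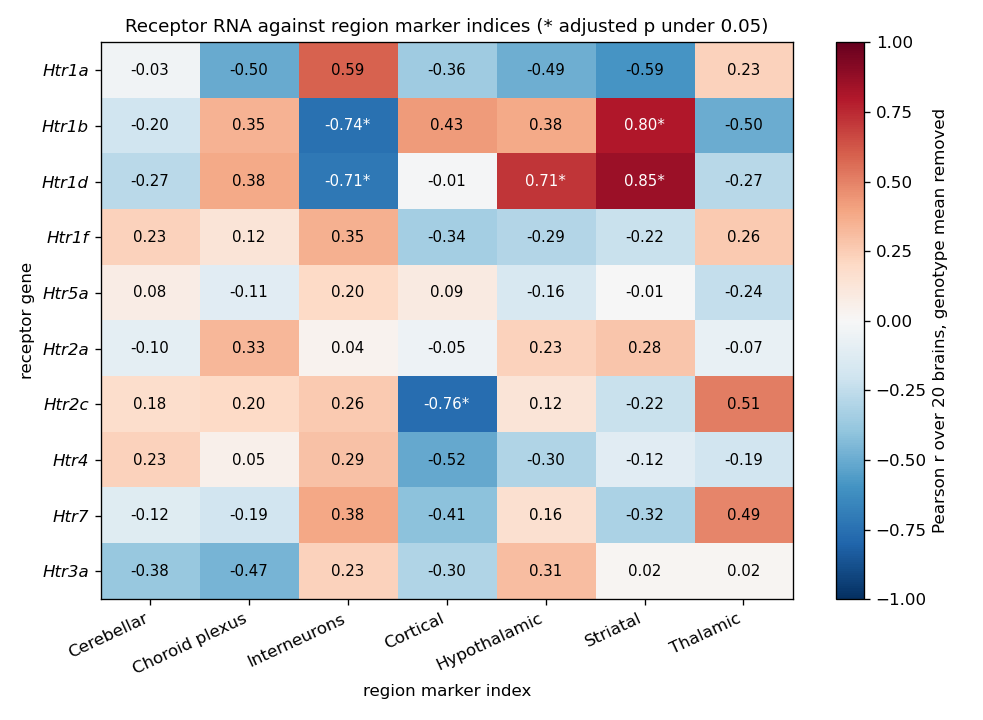
Pearson r of each receptor gene (rows) with each of 7 region marker indices (columns) over 20 brains with the genotype means removed, on a colour scale from -1 to 1. Asterisks mark the 6 relations with an adjusted p under 0.05, of which the highest were of *Htr1d* (0.853) and *Htr1b* (0.802) with the striatal index.

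*Htr1b* and *Htr1d* followed the markers of striatal projection neurons, such as *Ppp1r1b*, which encodes DARPP-32, a phosphatase inhibitor of dopamine signalling. Over 20 brains *Htr1d* had a Pearson r of 0.853 (adjusted permutation p = 0.0007) and a Spearman rho of 0.847 (adjusted permutation p = 0.0014) with the striatal index. For *Htr1b* the values were 0.802 (adjusted permutation p = 0.0007) and 0.705 (adjusted permutation p = 0.0187). Without the 2 brains farthest from the median index, C57BL/6 replicate 5 and *Winnie* replicate 5, r was 0.820 for *Htr1d* and 0.706 for *Htr1b*. Within C57BL/6 brains r was 0.890 for *Htr1d* and 0.780 for *Htr1b*, and within *Winnie* brains 0.816 and 0.843. The brains came close to forming separate clusters in the striatal index too, with 12 lower and 8 higher values. Among the lower 12, r was 0.713 for *Htr1d* (permutation p = 0.0251, 0.223 after adjustment over 20 relations) and -0.115 for *Htr1b* (permutation p = 0.713, 0.946 after adjustment). Among the higher 8, r was 0.659 for *Htr1d* and 0.777 for *Htr1b*, with adjusted permutation p of 0.223 and 0.232. The rank correlation of *Htr1b* among the higher 8 was 0.405 (permutation p = 0.358), and neither set of brains alone gave a relation of *Htr1b* past the adjusted threshold.

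**Figure D5:**
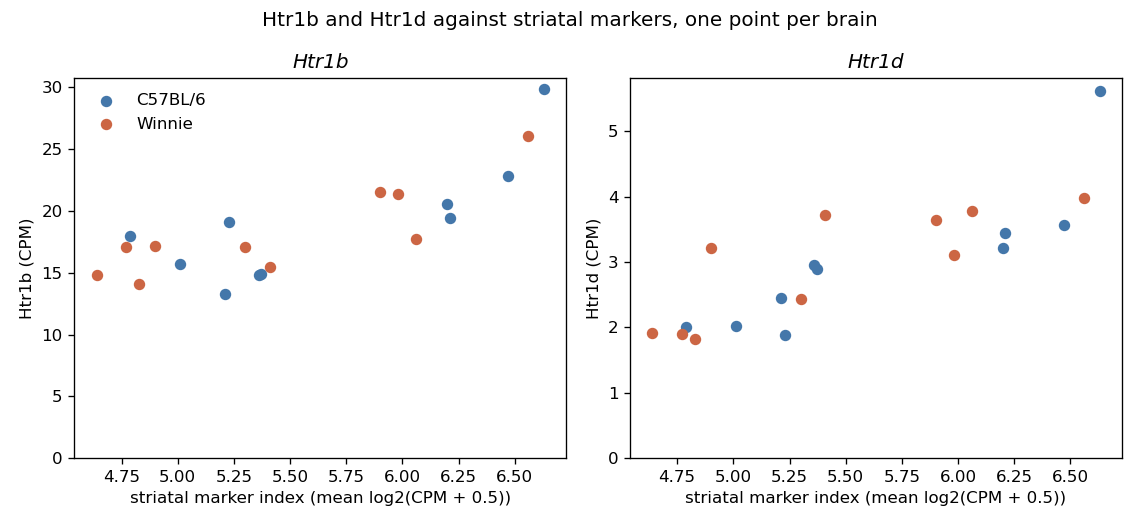
CPM of *Htr1b* and *Htr1d* (vertical axes, from 0) against the striatal marker index, the mean log2(CPM + 0.5) of 9 markers (horizontal axes), with 1 point per brain, coloured by genotype. Both rise with the index (Pearson r 0.802 and 0.853 with genotype means removed), and C57BL/6 replicate 5 is the highest point in both panels, at 29.9 and 5.62 CPM.

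The same receptors ran against the index of *Htr3a*-type interneurons, with r of -0.744 for *Htr1b* (adjusted permutation p = 0.0021) and -0.711 for *Htr1d* (adjusted permutation p = 0.0125), and rho of -0.770 and -0.717 (adjusted permutation p = 0.00175 and 0.0187). The interneuron and striatal indices were themselves related, with r of -0.712, so these relations were not independent of those with the striatal index. The interneuron and hippocampal lists share a marker, *Prox1*. The 3 brains in the higher hippocampal cluster, *Winnie* replicates 6, 7 and 8, were also highest in the interneuron index, at 5.81, 5.82 and 5.80. The interneuron index thus cannot be read as a measure of interneurons apart from the hippocampus. *Htr1d* rose with the hypothalamic index too, with r of 0.711 (adjusted permutation p = 0.00437) and rho of 0.668 (adjusted permutation p = 0.0344), and that index had r of 0.661 with the striatal one. *Htr3a* itself had r of 0.229 with the interneuron index (rho 0.0902, adjusted permutation p = 0.603 for r).

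*Htr2c* ran against the cortical index with r of -0.764 (adjusted permutation p = 0.0171), but rho was -0.582 (adjusted permutation p = 0.112). Without C57BL/6 replicates 3 and 6, the 2 brains farthest from the median index and the 2 lowest in *Htr2c*, r was -0.329, and within *Winnie* brains it was -0.203, so the relation rested on those brains. *Htr2a*, the gene that differed between the genotypes, had no relation past the threshold with any of the 7 indices, with r between -0.10 and 0.33.

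Between the receptors, 2 of 45 pairs were related over 20 brains. *Htr2c* and *Htr7* had r of 0.611 (adjusted permutation p = 0.0430) and rho of 0.725 (adjusted permutation p = 0.0283), and r was 0.657 within C57BL/6 and 0.672 within *Winnie* brains. Without C57BL/6 replicates 3 and 6 it was 0.716. *Htr1b* and *Htr1d* had r of 0.666 (adjusted permutation p = 0.0430) and rho of 0.629 (adjusted permutation p = 0.0803), but only 0.444 without replicate 5 of either genotype. Both adjusted values were close to the threshold. With median-ratio scaling 0 pairs passed, and leaving out 1 brain gave 0 to 2. The number was 0 without replicate 1, 2, 4, 5 or 7 of C57BL/6 or 2, 3, 4, 5 or 8 of *Winnie*, and 1 without replicate 3, 6 or 10 of C57BL/6 or 1 or 7 of *Winnie*.

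The promoters of *Htr1b* and *Htr1d* are shown because both genes followed the striatal index. As a pair they were related less firmly, as the preceding values show. Each is the 250 bases before a RefSeq start site, for *Htr1d* the upstream of its pair of start sites, in GRCm38.p6, 5′ to 3′ on the strand of the gene, with matches to the motifs given for *Htr2a* in capitals. The windows are chr9:81633833-81634082, minus strand, and chr4:136423274-136423523, plus strand.
Htr1b: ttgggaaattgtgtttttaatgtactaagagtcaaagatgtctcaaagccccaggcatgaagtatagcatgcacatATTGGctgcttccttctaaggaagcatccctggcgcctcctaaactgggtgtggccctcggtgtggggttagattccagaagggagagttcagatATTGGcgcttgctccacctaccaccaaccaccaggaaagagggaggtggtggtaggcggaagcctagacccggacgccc
Htr1d: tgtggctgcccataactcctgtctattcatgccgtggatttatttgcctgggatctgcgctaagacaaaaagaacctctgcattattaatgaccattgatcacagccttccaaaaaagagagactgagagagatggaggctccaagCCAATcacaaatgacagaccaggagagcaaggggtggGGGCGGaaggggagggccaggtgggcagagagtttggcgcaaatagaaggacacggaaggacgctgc
The *Htr1b* window held the CCAAT box in reverse orientation at 2 positions, starting 174 and 79 bases before the start site. The *Htr1d* window held 1 CCAAT box 104 bases and 1 GC box 67 bases before it. RefSeq gives *Htr1d* a second start site further downstream, whose window of chr4:136424362-136424661 held 4 GC boxes and 0 CCAAT boxes and is not printed. The CCAAT box is found in 33.8% and the GC box in 32.7% of all RefSeq promoters over the same 250 bases. RefSeq promoters were found for 8 of the 10 genes, not for *Htr3a* and *Htr4*.

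To show which other genes shared each receptor's pattern, the genes with the highest r over 20 brains were taken from 15167 genes with a mean of at least 1 CPM. These are given as a description, since the highest of so many values are large by selection. *Htr2c* had the closest match, *Usp29*, with r of 0.961, which was 0.970 within C57BL/6 and 0.932 within *Winnie* brains, followed by *Dzank1* (0.913) and *Mthfd2l* (0.905). The genes closest to *Htr1b* were *Bcr* (r 0.911), *Ptpn5* (0.872), which encodes the striatum-enriched phosphatase STEP, and *Pde7b* (0.860), a phosphodiesterase. Those closest to *Htr1d* were *Nexn* (0.891), *Drd2* (0.881), the dopamine receptor of indirect-pathway striatal neurons and itself a marker in the striatal index, and *Pcp4l1* (0.876).

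*Htr2a* was closest to *Smad4* (r 0.831), a mediator of TGF-beta signalling, with r of 0.831 within C57BL/6 and 0.830 within *Winnie* brains, and then to *Baalc* (0.775) and *Cldn12* (0.760). For *Htr1a* the closest genes were *Clvs2* (0.882), *B3galt2* (0.848) and *Nsf* (0.838), an ATPase of vesicle fusion. For *Htr1f* they were *Dhx9* (0.814), *Cxcl12* (0.792) and *Dram2* (0.769). *Htr7* was closest to *Zfp346* (0.845), *Fbxw17* (0.818) and *Hexim2* (0.813), *Htr3a* to *Zfp580* (0.895), *Marcksl1* (0.865) and *Krt77* (0.806), and *Htr4* to *Lzic* (0.770), *Dhx15* (0.751) and *Anxa1* (0.741).

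*Htr5a* was closest to *Ttc7b*, with r of 0.919, then *Plau* (0.752) and *Zfp160* (0.696). The likeness to *Ttc7b* was 0.966 within *Winnie* brains but 0.281 within C57BL/6 brains. *Winnie* replicate 3, the brain with the low *Htr5a*, was also low in *Ttc7b*, at 112 CPM against 156 to 183 CPM in the other 9 *Winnie* brains and 160 to 184 CPM in C57BL/6 brains.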

How the data were processed

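Brain polyA RNA of 10 C57BL/6 and 10 *Winnie* mice was sequenced on an MGISEQ-2000RS by the authors, processed with RNAsik 1.5.4 on GRCm38, counted per gene with featureCounts and deposited as CPM, made by library size with Degust; strandedness is not given in the sources used here. Whole reads were recovered from the CPM steps (100% of values whole within 0.0006 CPM). The paper uses fewer brains than the labels name, and all 20 were analysed. Genotypes were compared with limma 3.58.1 (R 4.3.3) on log2(CPM + 0.5), with trend and robust variance; fold changes are on that scale. A minimum mean of 0.1 CPM removed no gene. Permutation tests were two-sided with 100000 resamples (Python 3.11.15, numpy 2.4.6). edgeR 4.0.16 and DESeq2 1.42.0 on the reads were alternatives. Each pair of brains of a genotype differed by more than sampling noise. Nothing states that samples are other than separate mice.

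The receptor genes, pathway lists and tests were chosen with earlier results of these data known. The genes named are all 10 receptors, *Tph2*, *Slc6a4*, *Xist*, *Ddx3y* and the most abundant region markers. They further include at most 3 list genes in each direction with the smallest unadjusted p under 0.05. For each receptor its 3 most alike genes are named too. Added after their values were seen were *D430036J16Rik*, *Reln*, *Gnas*, *Prox1* and the cerebellar markers other than *Calb1*. The rule for separate clusters, a gap above 25% of the range, was also set after values were seen. Caudal brainstem markers were left out, with 2 of 7 in the table. The limma and relation tests were tested on simulated data. Alternatives were pseudocounts of 0.1 and 1, a mean of at least 1 CPM, median-ratio scaling, labelled sex, *Ddx3y* and choroid plexus markers as covariates, a replicate block and each brain left out; raphe and cortical covariates were added after seeing the data. Intervals come from the spread between brains.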

Additional observations from a re-analysis of the deposited data

Results flagged for a closer look

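In 2 of the 20 sets of values, 10 genes in each of both genotypes, 1 brain stood apart from its group by Dixon's test at the 95% level, where chance gives about 1 in 20. *Htr5a* in *Winnie* replicate 3 was 13 CPM, with the next lowest *Winnie* brain at 20.8 CPM, a gap of 58.5% of the group's range. *Htr1d* in C57BL/6 replicate 5 was 5.62 CPM, with the next highest at 3.57 CPM, a gap of 54.9% of the range.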

How the results depend on the processing

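*Htr2a* was called at an FDR under 0.05 in all 32 alternatives, and no other receptor gene in any. Its log2 fold change was 0.25 to 0.32 with 1 brain left out. The number of receptor genes at an unadjusted p under 0.05 rose from 1 to 2 with median-ratio scaling, with *Ddx3y*, choroid plexus or raphe markers as a covariate, and in edgeR and DESeq2, each time by *Htr2c*. With 1 brain left out it was 1 to 2, the added gene being *Htr5a* without *Winnie* replicate 3 and *Htr2c* in the other cases. Differences near 0 changed sign. *Htr1b* was at 0.00083 with the choroid plexus covariate and 0.04 with the cortical one, *Htr1d* at 0.04 with the choroid plexus covariate and *Htr7* at -0.01 with the cortical one. With 1 brain left out, log2 fold changes were -0.05 to 0.01 for *Htr1a*, -0.09 to 0.04 for *Htr1b*, -0.07 to 0.09 for *Htr1d*, -0.05 to 0.04 for *Htr1f* and -0.0039 to 0.11 for *Htr5a*, so none of these has a settled direction. They were 0.0033 to 0.08 for *Htr7*, 0.02 to 0.11 for *Htr3a* and 0.07 to 0.15 for *Htr4*. The cause was not tested. Related receptor pairs numbered 0 with median-ratio scaling, 1 with Spearman's rho, 1 with *Ddx3y* removed and 0 to 2 with 1 brain left out. Relations to region indices numbered 4 to 7 in all alternatives, beside 6. Genotypes share replicate numbers in the labels, but only 2 of 10 same-numbered pairs correlated above 0.1 (-0.342 to 0.172), so the numbers as labelled showed no pairing. With the C57BL/6 labels in doubt, this cannot decide whether the mice were paired. With a replicate block, *Htr2a* kept 0.28 (FDR 0.0206), and calls over all genes went from 434 to 227. In DESeq2 3337 genes have no adjusted p. *Htr1d* and *Htr1f*, at 34 to 109 and 38 to 69 reads, have the widest counting error.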

Other observations

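The pair of serotonin receptor genes outside the set was also measured, and both were chosen for mention after their values were seen. *Htr6*, a Gs-coupled receptor enriched in the striatum, averaged 4.86 ± 0.876 CPM in C57BL/6 and 5.05 ± 0.719 CPM in *Winnie* brains (SD, n = 10 each), with a log2 fold change of 0.05 (FDR 0.814 in limma). *Htr5b* averaged 2.94 ± 0.769 and 3.28 ± 0.5 CPM, with a log2 fold change of 0.15 (FDR 0.482 in limma).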
